A study of Mus musculus with 17 samples.

Results

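Genes were compared between 3 fusion lines and 2 control lines of C2C12 cells, mouse muscle precursors kept as a cell line, which fuse into fibres under the right culture conditions. The fusion side held 9 libraries, 3 each of cells carrying SRF-FOXO1, SRF-ICA1L or SRF-RELA, constructs named for SRF and a partner gene. The control side held 6 libraries, 3 of cells carrying the empty pMSCV vector and 3 of cells carrying SRF. The sides were set by the construct in each library's title and use 15 of the 17 libraries of the series. The other 2 libraries, of SRF-PDGFRB cells, stayed outside the comparison. Of the 15062 genes in the table, 14948 had enough counts to be tested.

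Against the mean of both controls, the 3 fusion lines had lower levels of muscle genes, among them Mef2c, Myod1, Xirp1, Xirp2 and the acetylcholine receptor subunits Chrnd, Chrnb1 and Chrna1, and of all 8 Hoxb genes tested. They had higher levels of a set of matrix and signalling genes, among them Col2a1, Tnxb, Fbln5, Ltbp2 and Smad9. Of the 145 genes tested in a stretch of chromosome 8, 81 were higher. The median sarcomere gene also lay lower in the SRF line than in the pMSCV line, and the median sarcomere difference was larger against pMSCV than against SRF. In the pooled comparison 2035 genes had an adjusted p under 0.05, and 396 did when replicate number was left out of the fit. With SRF as the only control 198 passed, and SRF-ICA1L by itself gave 12. Mef2c, Myod1, Xirp2, Chrna1, Smad9, Hoxb3, Hoxb4, Hoxb7 and Hoxb13 did not pass with SRF as the only control. Myod1 and Ltbp2 did not pass without replicate number in the fit.

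Serum response factor (SRF) is a transcription factor that binds a short DNA element called the CArG box. With cofactors of the myocardin family it drives cytoskeletal and contractile genes, and with ternary complex factors it drives the immediate-early genes that answer to serum. In myoblasts it works beside the myogenic factors (MyoD, Myf5 and myogenin) and the MEF2 factors, which switch on sarcomere and synapse genes as cells fuse into fibres. The series deals with SRF fusion oncogenes of myoid tumours of soft tissue.

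All cells grew in medium with fetal bovine serum, per the labels' protocols, and none is described as differentiated. What drives each construct, the species of its sequence, and whether a line is 1 clone or a pool are not stated, and nothing says that the 3 libraries of a line came from separate cultures. P-values may then measure a spread that is partly technical. Library totals ran from 20948439 to 23543734 counts. Levels are given as CPM, counts scaled to a common library total, which can be compared between libraries for 1 gene but not between genes, because they are not per length. A gene was called when its p-value from edgeR's quasi-likelihood test, adjusted over all genes, was under 0.05. The replicate number of each library was a block in the fit, so lines were compared within replicate 1, 2 and 3.

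The gene for SRF itself checked the label of the SRF line only. Srf (chromosome 17, 46548329 to 46556175, GRCm38) stood at 66.5, 93.5 and 83.2 CPM in the 3 pMSCV libraries and at 1668, 676 and 1030 CPM in the 3 SRF libraries. It lay at 105, 83.9 and 71.7 CPM in SRF-FOXO1, at 279, 176 and 121 CPM in SRF-ICA1L and at 154, 136 and 84.7 CPM in SRF-RELA. The SRF line was highest. All 3 SRF-ICA1L libraries, the first 2 of SRF-RELA and the first of SRF-FOXO1 lay above every pMSCV library, and the other 3 fusion libraries lay within the pMSCV range. Srf was called lower in the fusion lines (log2 fold change −1.28, SE 0.18), but with pMSCV alone as the control its value was 0.57 (adjusted p = 0.157). How far reads of a construct counted towards the mouse gene was not tested. Among the partner genes, Foxo1 differed by 0.36 on the log2 scale (adjusted p = 0.0610), Ica1l by 0.89 (adjusted p = 0.0804) and Rela by −0.04 (adjusted p = 0.774), and no such difference passed the threshold. These values average over all 3 fusion lines, while each partner is named in 1 of them, so they do not check the fusion labels.

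In the pooled comparison 2035 genes (13.6% of those tested) were called, 1079 (7.22%) higher and 956 (6.40%) lower in the fusion lines, and 731 of them (4.89%) changed at least 2-fold. The median log2 fold change was 0.71 in size among called genes and 0.21 among all genes. Of the called genes 1911 (12.8% of all tested) had the same sign in all 6 contrasts of 1 fusion line with 1 control line. Called or not, 6290 of the 14948 genes tested did so. The 6 contrasts use the same libraries as the call, so this count is a description only. The 9 fusion libraries lay wholly apart from the 6 control libraries for 138 genes (0.923% of all), of which 132 were called. This count rests on the block: without it 396 genes were called, all among the 2035 and in the same direction, 108 of them among the 132 whose libraries lay apart. Leaving out single libraries moved the count to 1186 (pMSCV replicate 1), 1108, 993 and 1037 (SRF replicates 1, 2 and 3), 4338 (SRF-FOXO1 replicate 2), 1115 (SRF-ICA1L replicate 2) or 1307 (SRF-RELA replicate 2). Without SRF-FOXO1 replicate 2, 2034 of the 2035 genes were still called. Leaving out a whole replicate number gave 73 (number 1), 3093 (number 2) or 426 called genes (number 3).

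The number of calls differed by line. Taken 1 at a time against the mean of the same 6 control libraries, SRF-FOXO1 gave 3340 called genes (22.3%), SRF-RELA 200 (1.34%) and SRF-ICA1L 12 (0.0803%). A test of the difference among the 3 fusion lines called 0 genes in edgeR, with 1425 (9.53%) at an unadjusted p under 0.05, and 198 in DESeq2. Without SRF-FOXO1 replicate 2 that edgeR test called 1624 genes. With the SRF-FOXO1 libraries left out, 1174 genes were called, 1091 of them among the 2035, and with neither those libraries nor the block, 0 were called by edgeR (1446 at an unadjusted p under 0.05). Against pMSCV alone 1661 genes were called and against SRF alone 198. Of the 167 called members of the gene lists described below, 126 were called against pMSCV alone, 26 against SRF alone and 49 without the block. Against SRF alone the value of 52 of the 167 was over 1.5 times smaller or of the opposite sign. For 20 of the 167 the sign was not the same in all 6 contrasts of 1 fusion line with 1 control line. Among these 20 were Myl4, Chrng, Jsrp1, Casq2, Atp2a1, Jund, Atf3, Egr2 and Tagln. SRF against pMSCV called 1 gene (0.00669%), Srf, in edgeR (1360, or 9.10%, at an unadjusted p under 0.05) and 90 genes in DESeq2.

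**Figure D1:**
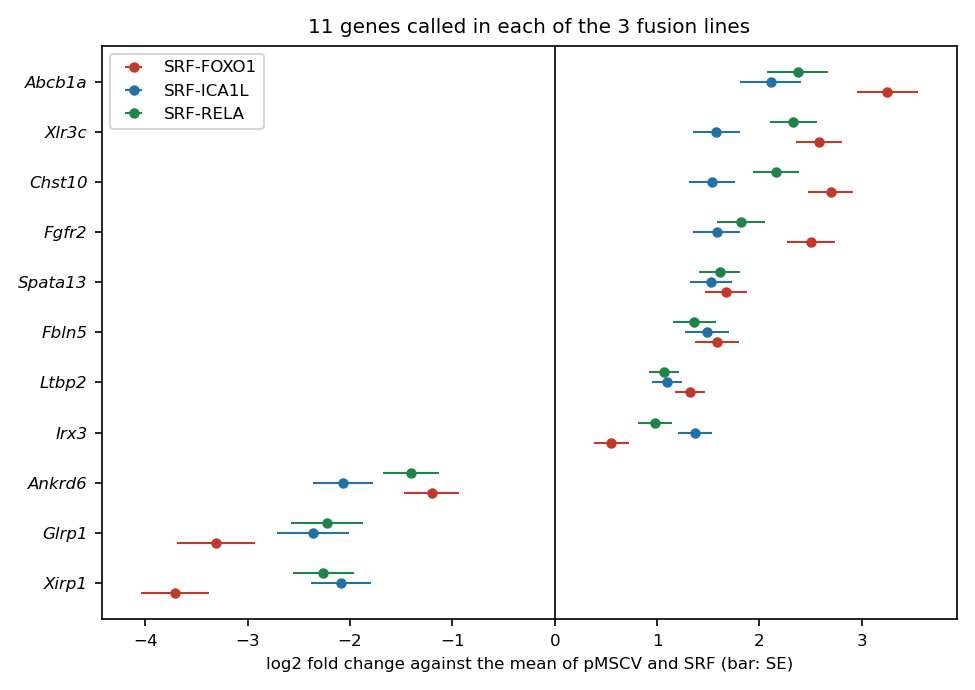
Log2 fold change of 11 genes in each fusion line against the mean of the pMSCV and SRF libraries, with the SE as a bar and a colour for each line. All 3 lines lie on the same side of 0 for each gene, 8 genes to the right and 3 to the left; the 3 lines share their control libraries.

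Exactly 12 genes (0.0803%) were called in each of the 3 fusion lines with the same sign, 9 higher (0.0602%) and 3 lower (0.0201%), and they are all the genes that SRF-ICA1L called. This count ranged from 0 to 102 when single libraries were left out (0 without SRF replicate 1, 102 without SRF-FOXO1 replicate 2) and was 0 without the block, where 9 of the 12 were still called in the pooled comparison. Fbln5 (chromosome 12, 101746565 to 101819055), a fibulin that helps to assemble elastic fibres, stood at 22.6, 57.5 and 27.3 CPM in pMSCV and at 49.4, 44.4 and 37.3 CPM in SRF. It stood at 96.4, 135 and 116 CPM in SRF-FOXO1, at 131, 128 and 72.2 CPM in SRF-ICA1L and at 96.1, 141 and 72.3 CPM in SRF-RELA. The lowest fusion library was higher than the highest control library, and its pooled log2 fold change was 1.48 (SE 0.17, adjusted p = 0.000847), with 1.59, 1.49 and 1.36 in the 3 lines. Spata13, a guanine nucleotide exchange factor, ranged from 12.4 to 23.4 CPM in the fusion libraries and from 2.62 to 8.66 CPM in the controls. Its change was 1.60 (SE 0.17), and the 3 lines lay close together at 1.68, 1.52 and 1.61.

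Xlr3c, of an X-linked lymphocyte-regulated gene family whose near-identical copies may share reads, rose by 2.16, with fusion libraries from 3.22 to 12.4 CPM and control libraries from 0.839 to 2.55 CPM. Ltbp2, a matrix protein related to the binding proteins of latent TGF-beta, rose by 1.16 (SE 0.12), from a control range of 56.7 to 164 CPM to a fusion range of 137 to 435 CPM. Its libraries overlapped between replicate numbers, replicate 1 being the lowest in each line, but within each number the 3 fusion libraries exceeded both controls. Of all genes tested, 6.49% lay apart in 1 direction within every number, a measure added after the data were seen. The drug-efflux pump Abcb1a rose by 2.58, the sulphotransferase Chst10 by 2.13, the growth factor receptor Fgfr2 by 1.97 and the homeobox gene Irx3 by 0.97. Of these 4, Chst10 was not called without the block (adjusted p = 0.0569), nor was Ltbp2 (adjusted p = 0.0615).

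The 3 genes that fell in each line were Xirp1, Glrp1 and Ankrd6. Xirp1, an actin-binding repeat protein of the muscle cell's adhesion sites, stood at 38.7, 14.6 and 32.5 CPM in pMSCV and at 24, 16.3 and 11.7 CPM in SRF. It stood at 2.22, 1.22 and 1.65 CPM in SRF-FOXO1, at 6.72, 2.54 and 7.03 CPM in SRF-ICA1L and at 4.29, 3.5 and 5.77 CPM in SRF-RELA. Every fusion library was lower than every control library, and the pooled change was −2.69 (SE 0.20, adjusted p = 0.000182). Glrp1 changed by −2.63 and Ankrd6 by −1.56. The libraries of both overlapped across replicate numbers, from 0.222 to 7.66 CPM against 6.13 to 38.1 CPM for Glrp1 and from 0.274 to 0.913 CPM against 0.695 to 2.67 CPM for Ankrd6, while within each number they lay apart. Glrp1 was not called without the block (adjusted p = 0.0662), and Ankrd6 was not called against SRF alone (adjusted p = 0.0657). Abcb1a, Chst10, Fgfr2, Irx3, Glrp1 and Ankrd6 were picked out for being called in each line, after their values were seen.

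**Figure D2:**
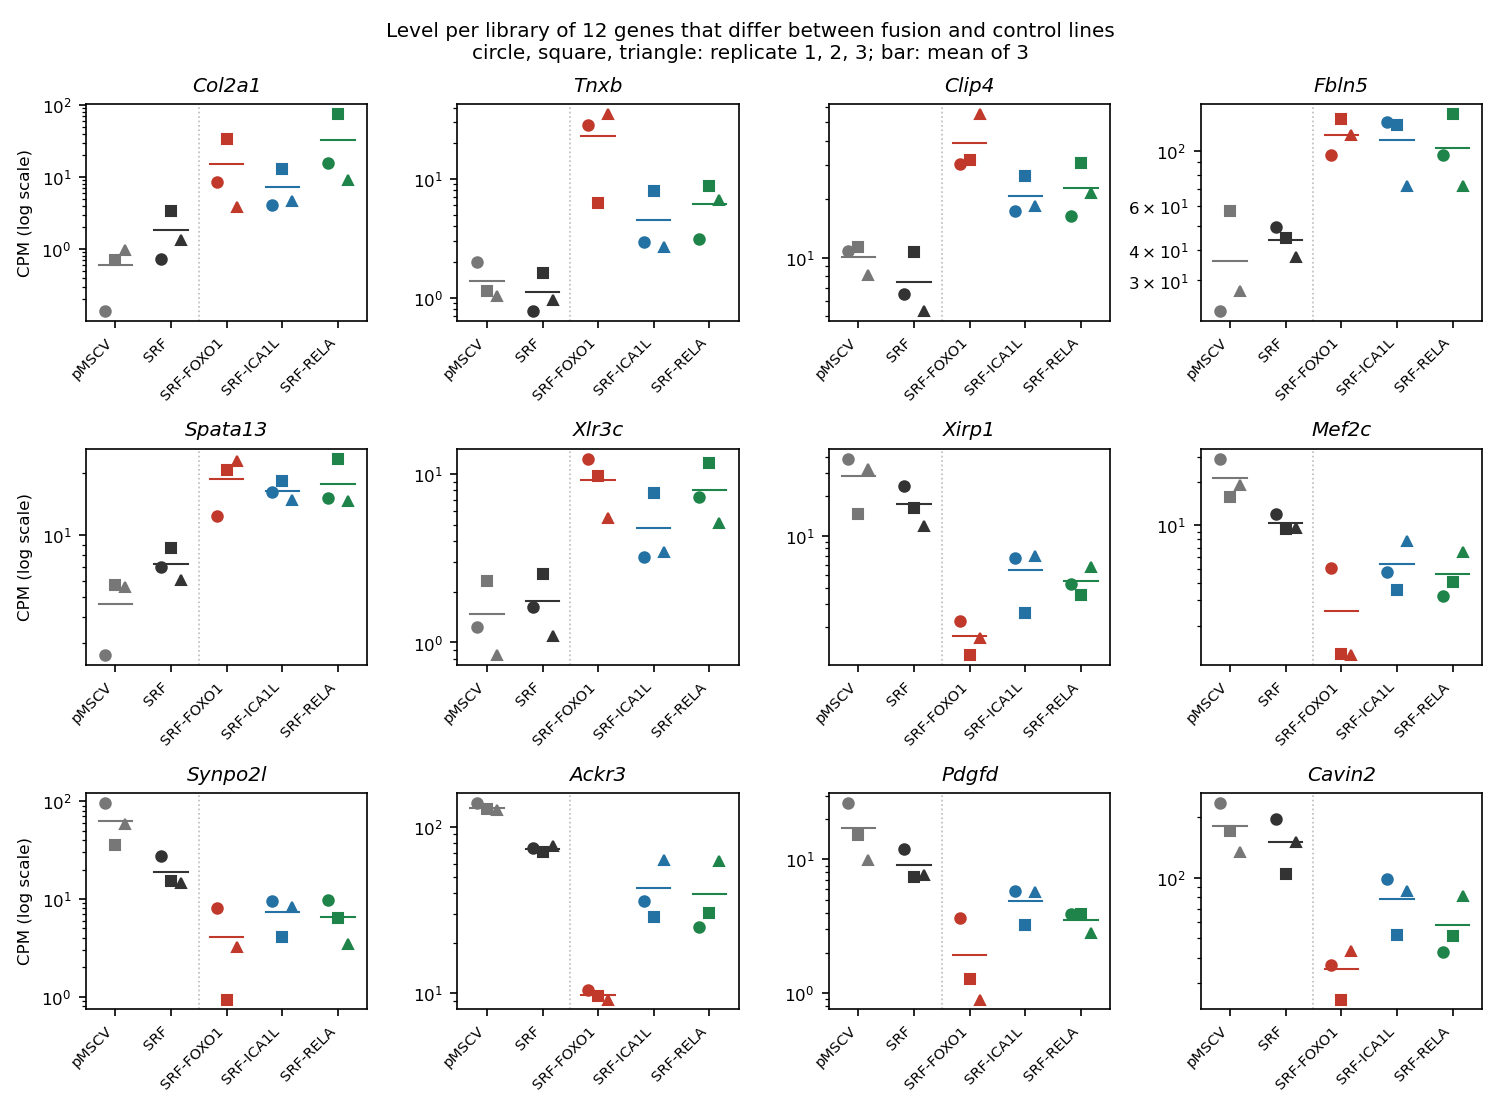
CPM on a log axis in each of the 15 libraries for 12 genes, with a marker shape for each replicate number and a bar at the mean of 3. The 9 fusion libraries lie above the 6 control libraries for the first 6 genes and below them for the last 6, and SRF-FOXO1 is lowest for Xirp1, Ackr3 and Cavin2.

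Among genes whose libraries did not overlap, the 15 largest rises included matrix, adhesion and receptor genes. Col2a1 (chromosome 15, 97975602 to 98004695), the fibrillar collagen of cartilage, ranged from 3.83 to 74.5 CPM in the fusion libraries (median 9.26) and from 0.138 to 3.37 CPM in the controls (median 0.852). The 2 sides lay just apart, and within each replicate number the gap was wider; the change was 3.64 on the log2 scale, 12.5-fold (SE 0.41, adjusted p = 0.000847). Tnxb, a tenascin of loose connective tissue, ranged from 2.65 to 35.1 CPM in the fusion libraries and from 0.770 to 1.98 CPM in the controls. The 2 highest libraries were SRF-FOXO1 replicates 1 and 3, at 28.4 and 35.1 CPM, while replicate 2 was at 6.31 CPM, and its change was 2.79 (SE 0.46, adjusted p = 0.00382). Col12a1, a collagen that links fibrils to their surroundings, was at 309 to 1302 CPM in the fusion libraries and 81.6 to 268 CPM in the controls. Its change was 1.64 (SE 0.22), and the value was 2.11 against pMSCV alone and 1.17 against SRF alone (adjusted p = 0.0686).

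The other largest rises included Fat4 (1.85), a giant cadherin, Abcg1 (1.76), a sterol exporter, Fzd8 (1.65), a Wnt receptor, and Pak3 (1.49), a kinase that acts under Rac and Cdc42. Clip4 (1.60), Slc22a15 (1.48) and Lysmd2 (1.20) belonged to the same group. Smad9 (1.31), a transcription factor that is activated by BMP receptors, was at 6.62 to 15.9 CPM in the fusion libraries and 1.89 to 5.65 CPM in the controls. Each of these 8 genes was called with and without the block, and in all 15 fits that left out 1 library. Against SRF alone, Abcg1, Clip4 and Slc22a15 were called (adjusted p = 0.0193, 0.0120 and 0.0259), while Fat4, Fzd8, Pak3, Smad9 and Lysmd2 were not (adjusted p from 0.0544 to 0.138).

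Muscle genes fell in several of the lists. Of 28 sarcomere protein genes tested, 11 were called lower and 0 higher, where 6.40% of all genes were called lower, and the list's median log2 fold change was −1.09 against −0.00 for all genes. The 11 were Xirp1 (−2.69), Des (−1.38), Xirp2 (−2.87), Tnnt2 (−1.14), Myom2 (−1.60), Ttn (−1.72), Lmod3 (−1.88), Myl4 (−0.75), Myh3 (−1.80), Tnni2 (−1.68) and Myl1 (−1.54). Without the block Xirp1, Des, Xirp2, Ttn, Myom2 and Myh3 were called. In the 15 fits that each left out 1 library, Lmod3 kept its call in 12, Myl4 in 9, Myh3 in 8, Tnni2 in 5 and Myl1 in 3. The control line made a difference: 17 members were called lower against pMSCV alone (median −1.83) and 1 against SRF alone (median −0.17), and SRF lay below pMSCV by a median of 1.72 over these genes. Myl4 went the other way against SRF alone, at 0.12 (adjusted p = 0.798). The member called against either control alone was Xirp1, at −2.99 from pMSCV and −2.38 from SRF (adjusted p = 0.00341).

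Of 15 myogenic transcription factors 5 were called lower and 0 higher, with a median of −0.28. Over all genes the shares were 6.40% lower and 7.22% higher. Mef2c (chromosome 13, 83504034 to 83667080), a MEF2 factor, stood at 29.2, 15.7 and 19.2 CPM in pMSCV, at 12, 9.48 and 9.60 CPM in SRF and between 1.25 and 7.76 CPM in the 9 fusion libraries. The sides did not overlap, SRF lay between pMSCV and the fusions, and the change was −1.92 (SE 0.28, adjusted p = 0.00191; −1.43 and 0.0631 against SRF alone). Myod1, the master regulator of the muscle lineage, was at 6.64 to 64.3 CPM in the fusion libraries and at 25 to 107 CPM in the controls. Replicate 3 was the highest library in 4 of the 5 lines, and within each number all fusion libraries were below both controls. It changed by −1.51 (SE 0.20, adjusted p = 0.00124), Myf5, the earlier of the myogenic factors, by −1.12 (adjusted p = 0.0114), and Myog and Msc by −1.61 and −1.56. Without the block Myod1 was not called (adjusted p = 0.0762), while Mef2c and Myf5 were. None of the 5 was called against SRF alone, where Myod1 was at −1.09 (adjusted p = 0.0521), Myf5 at −0.80 (0.165), Myog at −0.48 (0.616) and Msc at −1.21 (0.220). Myog and Msc were not called without it either (adjusted p = 0.139 and 0.0897), and kept their calls in 7 and 5 of the 15 fits with 1 library left out.

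The acetylcholine receptor and endplate genes, which build the muscle side of the nerve synapse, had 7 of 11 members called lower and 1 higher, with a median of −1.19. Over all genes the shares were 6.40% lower and 7.22% higher. The 7 were Chrnd (−2.35), Chrnb1 (−1.64), Chrna1 (−1.38) and Chrng (−1.50), which encode receptor subunits, and Rapsn (−0.89), Dok7 (−2.07) and Musk (−1.19), which cluster them. Ache, the enzyme that clears acetylcholine, rose by 1.61. Chrnd stood at 148, 74.0 and 60.8 CPM in pMSCV, at 34.3, 25.9 and 19 CPM in SRF and at 1.91 to 20.2 CPM in the fusion libraries. It was highest in pMSCV and next in SRF, whose replicate 3 overlapped the fusion libraries, and 3 members were still called against SRF alone (median −0.68). Without the block Chrnd, Chrnb1, Chrna1 and Rapsn were called, Dok7, Musk and Chrng were not (adjusted p = 0.0546, 0.0510 and 0.142), and neither was Ache (adjusted p = 0.138). Chrng and Ache kept their calls in 3 and 4 of the 15 fits with 1 library left out, and Chrng was at −0.32 against SRF alone (adjusted p = 0.771). Of 19 excitation-contraction coupling genes 6 were called lower and 0 higher (median −0.36), led by Cacng1 (−1.58), a subunit of the muscle calcium channel, and Stac3 (−1.39), which anchors that channel. Against SRF alone 0 of the 19 were called (Cacng1 −0.93, adjusted p = 0.0657; Stac3 −0.63, adjusted p = 0.237), and SRF lay below pMSCV by a median of 1.22 over the list. Without the block Jsrp1, Casq2 and Atp2a1 lost their calls (adjusted p = 0.146, 0.215 and 0.100), and the last 2 kept them in 4 of the 15 fits with 1 library left out. Among 21 fusion and adhesion genes 3 were called lower, with Cdh15 (−1.97), the myoblast's M-cadherin, and Itga7 (−1.11), its laminin receptor, in front, and 2 higher.

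Promoters were searched on both strands for 3 motifs, the CArG box, the MEF2 site and the E-box CAGCTG. The window searched ran from 250 bases before to 50 bases after each annotated start in RefSeq's annotation of GRCm38.p6. Matches of different motifs were counted separately, whether or not they overlapped. A start was matched for 10585 of the genes tested. The MEF2 site was found in 58 of them (0.548%), in 8 of the 698 matched genes called lower (1.15%) and in 1 of the 828 called higher (0.121%). Among genes called lower whose libraries did not overlap it was in 3 of 45 (6.67%). The CArG box was in 1.66% of all matched genes, in 2.05% of those called higher and in 1.72% of those called lower. The E-box CAGCTG, which myogenic factors bind, was in 18.3%, 19.4% and 21.5%. Xirp2 and Synpo2l are among the 3 genes with a MEF2 site and no overlap, and Ttn fell with overlapping libraries. Their windows are printed with the MEF2 site in capitals to show the element in muscle genes that fell, and that of Itgb6 with the CArG box in capitals as the one such match among the 15 largest falls. The motif lies 74, 109, 166 and 50 bases before the start in that order. Each printed window holds only the 250 bases before the start and reads 5′ to 3′ on the gene's strand. Synpo2l and Itgb6 each have a further annotated start whose 250 bases lack that motif. Atf3, of the immediate-early list and called lower, also has a MEF2 site, 22 bases before a start. Its window is not printed.
Xirp2, chr2:67445752-67446001, plus strand: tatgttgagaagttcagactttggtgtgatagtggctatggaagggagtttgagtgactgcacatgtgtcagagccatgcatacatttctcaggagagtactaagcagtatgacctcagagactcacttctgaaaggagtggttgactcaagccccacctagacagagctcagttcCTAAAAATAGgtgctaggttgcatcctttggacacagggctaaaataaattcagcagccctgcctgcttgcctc
Synpo2l, chr14:20668355-20668604, minus strand: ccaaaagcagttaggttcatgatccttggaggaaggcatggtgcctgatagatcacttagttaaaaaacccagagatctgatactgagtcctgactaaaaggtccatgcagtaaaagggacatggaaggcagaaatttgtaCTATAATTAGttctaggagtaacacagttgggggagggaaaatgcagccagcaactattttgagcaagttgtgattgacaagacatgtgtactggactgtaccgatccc
Ttn, chr2:76982548-76982797, minus strand: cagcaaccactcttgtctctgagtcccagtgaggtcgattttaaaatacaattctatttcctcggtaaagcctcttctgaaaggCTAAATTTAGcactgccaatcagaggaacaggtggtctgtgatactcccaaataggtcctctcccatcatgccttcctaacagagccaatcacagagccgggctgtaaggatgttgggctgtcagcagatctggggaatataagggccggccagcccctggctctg
Itgb6, chr2:60673694-60673943, minus strand: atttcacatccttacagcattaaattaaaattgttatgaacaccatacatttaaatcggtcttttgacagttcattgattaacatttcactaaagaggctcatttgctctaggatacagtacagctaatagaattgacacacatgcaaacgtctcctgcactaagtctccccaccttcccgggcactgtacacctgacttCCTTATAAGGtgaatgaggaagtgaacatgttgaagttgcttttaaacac

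Xirp2, a relative of Xirp1 at the intercalated discs and attachment sites of muscle, changed by −2.87 (SE 0.49, adjusted p = 0.00441), and ranged from 0 to 2.91 CPM in the fusion libraries and from 4.56 to 22.4 CPM in the controls. Synpo2l, an actin-binding protein of the sarcomere's Z-disc, stood at 95.9, 35.4 and 58.3 CPM in pMSCV, at 27.3, 15.2 and 14.6 CPM in SRF and between 0.935 and 9.81 CPM in the fusion libraries. It changed by −2.62 (SE 0.25), −3.45 against pMSCV alone and −1.78 against SRF alone (adjusted p = 0.0222). Itgb6, an integrin subunit whose dimer can activate latent TGF-beta, was a weak gene at 0.421 to 2.47 CPM in the fusion libraries and 2.60 to 6.62 CPM in the controls. It changed by −1.79 (SE 0.14), with −2.67 in SRF-FOXO1, −1.17 in SRF-ICA1L and −1.52 in SRF-RELA.

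Of the other 15 largest falls without overlap, Sorbs2 (−2.13), an adaptor at Z-discs and stress fibres, and Nrap (−1.90), which helps to build myofibrils, are muscle genes too. Ackr3 (−2.0, SE 0.17), a scavenger receptor for the chemokine CXCL12, stood at 139, 127 and 125 CPM in pMSCV and at 74.5, 70.1 and 76.3 CPM in SRF. It stood at 10.4, 9.68 and 9.17 CPM in SRF-FOXO1, and from 24.9 to 62.9 CPM in SRF-ICA1L and SRF-RELA, so that pMSCV was highest, SRF next and SRF-FOXO1 lowest, with no overlap between these groups. The difference among the fusion lines had an unadjusted p of 3.3e-05, and 0.163 when adjusted. Cavin2, a coat protein of caveolae, ranged from 24.7 to 98.5 CPM in the fusion libraries and from 104 to 235 CPM in the controls (−1.61). Patj (−1.51), a scaffold of tight junctions, Grb14 (−1.62), an adaptor that dampens insulin signalling, Efhd1 (−1.63), AU018091 (−1.72) and Sema3d (−1.89), a secreted guidance protein, made up the rest with Pdgfd and Mef2c. Grb14 was the only one of the 15 that was higher in SRF than in pMSCV (0.53 on the log2 scale), so that its difference was larger against SRF (−1.88) than against pMSCV (−1.35). Sema3d was not called without the block (adjusted p = 0.0638) and kept its call in 12 of the 15 fits with 1 library left out.

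**Figure D3:**
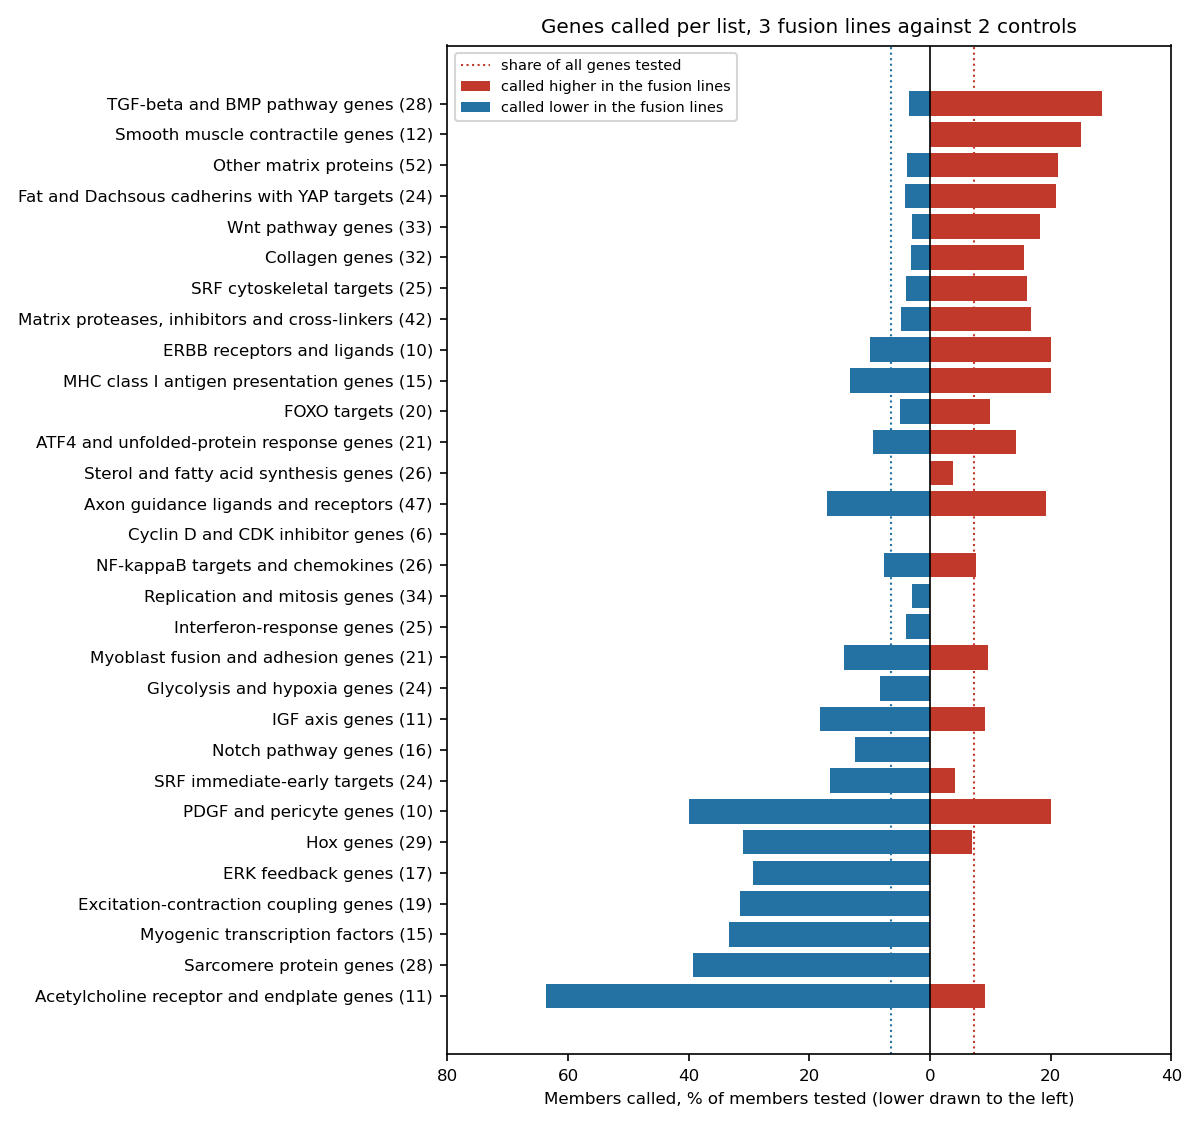
Percent of each gene list's tested members called higher (to the right) and lower (to the left) in the fusion lines, with the number tested in brackets and dotted lines at the share of all genes. The bars for acetylcholine receptor, sarcomere and myogenic genes reach left, and those for TGF-beta and BMP, matrix and smooth muscle genes reach right.

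Matrix genes rose more often than they fell. Of 32 collagens 5 were called higher and 1 lower (median 0.52), where 7.22% of all genes were called higher. They were Col2a1 and Col12a1 (above), Col10a1 (3.73), the collagen of hypertrophic cartilage, Col5a2 (0.76) and Col16a1 (1.02), and the one that fell was Col17a1 (−1.06), of epithelial anchoring structures. Of 52 other matrix proteins 11 were called higher and 2 lower (median 0.40), with Smoc2 (1.76), Lama4 (1.39), Ecm1 (0.69) and Bgn (1.24) beside those already named. The 2 that fell were Lamb3 (−1.18) and Hmcn1 (−4.26, SE 0.44), a giant hemicentin at 0.133 to 1.27 CPM in the fusion libraries and 2.05 to 21.2 CPM in the controls, whose libraries did not overlap. Of 42 proteases, inhibitors and cross-linkers 7 were called higher, among them Loxl4 (0.52), Adam12 (0.88) and Timp3 (0.87), and 2 lower. Adam12 was at 1.66 against pMSCV alone but at 0.10 against SRF alone (adjusted p = 0.779), and was not called without the block (adjusted p = 0.214). Without the block 2 collagens (Col2a1 and Col12a1), 3 other matrix proteins (Fbln5 and Tnxb among them) and 2 genes of the protease list were called higher. Smoc2 and Lamb3 were not (adjusted p = 0.498 and 0.435). With 1 library left out, Col16a1 kept its call in 5 of 15 fits, Col5a2 in 12, Lama4 in 5, Ecm1 in 11 and Bgn in 2. The matrix medians in SRF-FOXO1 were 0.84 for collagens and 0.76 for other matrix proteins, against 0.36 and 0.27 in SRF-ICA1L and 0.39 and 0.37 in SRF-RELA, a difference that was not tested.

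Of 28 TGF-beta and BMP pathway genes 8 were called higher and 1 lower, with a median of 0.45. Over all genes the shares were 7.22% higher and 6.40% lower. The rises took in the secreted BMP antagonists Chrdl1 (4.24) and Grem1 (0.95), the ligand subunit Inhba (1.18), the receptors Bmpr1a (0.44) and Acvr1 (0.27), the BMP-driven factor Smad9 and the inhibitory Smad6 (1.18). The antagonist Nog fell by 1.09. Grem1 was abundant, at 379 to 1189 CPM in the fusion libraries and 242 to 588 CPM in the controls. Chrdl1 was near 0 in all but 3 fusion libraries: replicate 3 of SRF-FOXO1, SRF-ICA1L and SRF-RELA stood at 68.8, 8.22 and 16.9 CPM, replicate 3 of pMSCV and SRF at 0.699 and 1.78 CPM, and the other 10 libraries at 0.546 CPM at most. Its high values were thus all in replicate 3, and it was not called without the block (adjusted p = 0.193). Without the block Smad9, Smad6 and Bmpr1a were called and Grem1 was not (adjusted p = 0.0832). Inhba kept its call in 7 of the 15 fits with 1 library left out, Nog in 6 and Acvr1 in 5. Nog was at −0.14 against SRF alone (adjusted p = 0.863).

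Of 33 Wnt pathway genes 6 were called higher and 1 lower, with a median of 0.54. Over all genes the shares were 7.22% higher and 6.40% lower. The rises were in the receptors Fzd8, Fzd1 (0.85) and Ror2 (2.14), the secreted inhibitor Sfrp1 (2.51), the feedback target Axin2 (1.42) and the ligand Wnt4 (1.34), and the fall was in the ligand Wnt7b (−2.19). Ror2, a receptor tyrosine kinase for Wnt5a, was at 1.10 to 3.93 CPM in the fusion libraries and at 0.0920 to 0.820 CPM in the controls, with no overlap. Ror2 and Fzd8 were called without the block, and Sfrp1 and Wnt7b were not (adjusted p = 0.155 and 0.0685). Axin2 and Wnt4 kept their calls in 9 of the 15 fits with 1 library left out. Of 24 Fat and Dachsous cadherins and YAP targets 5 rose, led by Fat4, Crim1 (0.98) and Fjx1 (1.84), and 1 fell, Ankrd1 (−0.78), a YAP target of muscle. Of 16 Notch pathway genes 0 rose and 2 fell, the effector Hey1 (−1.67) and the ligand Jag2 (−1.28), and neither was called without the block (adjusted p = 0.205 and 0.0961).

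The PDGF list (10 tested, median 0.31) split by role, where 7.22% of all genes were called higher and 6.40% lower. All 4 ligand genes fell, Pdgfd (−1.93), Pdgfa (−0.43), Pdgfc (−0.74) and Pdgfb (−1.65), and both receptor genes rose, Pdgfra by 1.16 and Pdgfrb by 0.90. Each kept its sign against either control alone, but only Pdgfd was called against pMSCV alone, and only Pdgfd and Pdgfa against SRF alone. With the SRF-FOXO1 libraries left out, Pdgfa, Pdgfc and Pdgfb were not called (adjusted p = 0.0546, 0.322 and 0.143). Pdgfd was at 26.5, 15.2 and 9.88 CPM in pMSCV, at 12, 7.38 and 7.69 CPM in SRF and at 0.890 to 5.81 CPM in the fusion libraries. Its libraries did not overlap, and it was the member called without the block. For Pdgfrb the fusion libraries lay from 238 to 593 CPM and the controls from 103 to 344 CPM, an overlap, and it kept its call in 3 of the 15 fits that left out 1 library (Pdgfra in 7, Pdgfb in 9 and Pdgfc in 13).

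Of 17 genes in a list of dual-specificity phosphatases, Sprouty and Spred proteins and Etv factors, drawn up as ERK feedback genes, 5 fell and 0 rose (median −0.43): Dusp13 (−1.84), Dusp10 (−0.82), Dusp8 (−1.14), Spry2 (−0.71) and Spry4 (−0.53). Spry2 and Spry4 restrain receptor tyrosine kinase signalling, while Dusp10 and Dusp8 act mainly on the JNK and p38 kinases and Dusp13 is an atypical phosphatase of muscle and testis. Of the members best known as ERK-induced, Dusp6 (−0.51, adjusted p = 0.121), Dusp4 (−0.57, adjusted p = 0.170) and Etv4 (−0.63, adjusted p = 0.176) were not called. Dusp13 and Dusp10 were called without the block, and Spry4 kept its call in 4 of the 15 fits with 1 library left out. Among 10 ERBB receptors and ligands Erbb3, the neuregulin receptor of muscle, fell by 1.68 (−2.64 against pMSCV alone, and −0.72 with adjusted p = 0.233 against SRF alone), while Nrg1 rose by 0.62 and Egfr by 0.81, neither of them called without the block (adjusted p = 0.136 and 0.199). Of 47 axon guidance genes 9 rose and 8 fell, where 7.22% of all genes were called higher and 6.40% lower. By size, Sema6a (−1.96), Sema3d (−1.89) and Sema3c (−1.51) led the falls and Sema3g (1.43), Unc5c (1.34) and Ephb2 (1.31) the rises. By smallest p, Sema6a, Robo1 (−1.46) and Efnb2 (−1.0) led the falls and Plxnb1 (0.88), Ephb2 and Plxna2 (0.68) the rises. Ephb2 was not called without the block (adjusted p = 0.0693), nor were Sema3c, Sema3g and Unc5c (adjusted p = 0.0805, 0.0947 and 0.214), which kept their calls in 5, 5 and 3 of the 15 fits with 1 library left out.

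Among known targets of SRF, cytoskeletal and smooth muscle genes were called higher more often than all genes (7.22%). Immediate-early genes were called lower more often than all genes (6.40%). The counts were small, and the lists were not tested as sets. Of 25 SRF cytoskeletal targets 4 were called higher, Tpm2 (0.49), Ablim1 (0.70), Pdlim5 (0.56) and Cald1 (0.37), and 1 lower, Coro1c (−0.41), with a median of 0.13. Of 24 immediate-early targets 1 was called higher, Egr2 (0.96), and 4 lower, Jund (−0.62), Csrnp1 (−1.01), Atf3 (−1.17) and Klf4 (−0.69), with a median of 0.08. Egr2, a zinc-finger factor with a CArG box in its promoter window, stood at 118 to 240 CPM in the 3 replicate 2 fusion libraries and 138 and 77.0 CPM in the replicate 2 controls, and replicate 2 was the highest library in all 5 lines. Its values were 1.53 in SRF-ICA1L, 1.33 in SRF-RELA and 0.02 in SRF-FOXO1, and the difference among the lines was not called. Without the block 2 cytoskeletal targets (Tpm2 and Ablim1) and 0 immediate-early targets were called. With 1 library left out, Pdlim5 and Klf4 kept their calls in 6 of 15 fits, and Cald1 and Egr2 in 3. Of 12 smooth muscle genes 3 were called higher and 0 lower (median 0.53): Lmod1 (2.39), Tagln (1.13) and Myh11 (2.22). Against SRF alone Tagln was at 0.46, Lmod1 at 1.40 and Myh11 at 2.01 (adjusted p = 0.483, 0.237 and 0.204). SRF lay above pMSCV by a median of 0.51 over the smooth muscle list. Lmod1, which nucleates actin filaments, stood at 10.3 to 57.2 CPM in the fusion libraries and 0.230 to 19.1 CPM in the controls, which overlap through SRF replicate 3, and none of the 3 was called without the block (adjusted p from 0.0574 to 0.0947). Tagln and Myh11 kept their calls in 7 and 4 of the 15 fits with 1 library left out, and Myh11 stood at 4.49 and 14.1 CPM in SRF-RELA replicates 1 and 2 and at 0.701 CPM at most in all other libraries of the comparison.

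The lists tied to the fusion partners had called shares near the 7.22% higher and 6.40% lower of all genes. Of 26 NF-kappaB targets and chemokines 2 rose, Cx3cl1 (1.20) and Csf1 (0.87), and 2 fell, Ackr3 and Traf1 (−1.52), with a median of −0.02. Of 20 FOXO targets 2 rose, Cat (0.40) and Sesn3 (0.97), and 1 fell, Eif4ebp1 (−0.59). Ackr3 and Csf1 were called without the block and no FOXO target was, and Traf1 and Sesn3 kept their calls in 7 and 4 of the 15 fits with 1 library left out. Interferon-response genes gave 0 higher and 1 lower of 25, Rsad2 (−1.72), with a median of 0.39. Without SRF-FOXO1 replicate 2 the counts called higher were 10 interferon-response genes and 9 FOXO targets; over all 15 fits with 1 library left out they ran from 0 to 10 and from 0 to 9. Without pMSCV replicate 2, 4 interferon-response genes were called higher, and DESeq2 called 6. MHC class I genes gave 3 higher and 2 lower of 15. The call of H2-K1 in that list (−0.44) turned to 0.10 against SRF alone (adjusted p = 0.705). Of 34 replication and mitosis genes 0 rose and 1 fell, of 6 cyclin D and CDK inhibitor genes 0 were called, and of 26 sterol and fatty acid synthesis genes 1 rose. Of 24 glycolysis and hypoxia genes 2 fell, of 11 genes of the IGF axis 1 rose and 2 fell, and of 21 ATF4 and unfolded-protein response genes 3 rose and 2 fell.

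The Hox genes differed by cluster. All 8 Hoxb genes tested were called lower (median −2.38), where 6.40% of all genes were called lower and 7.22% higher. Of 11 Hoxa genes 1 was called higher (Hoxa13, 1.03) and 0 lower, and of 9 Hoxc genes 1 higher (Hoxc12, 0.81) and 0 lower. The 1 Hoxd gene tested, Hoxd9, was called lower as well, at −3.03 (SE 0.77, adjusted p = 0.0265). It was near 0 throughout, at 0 to 0.288 CPM in the fusion libraries and 0 to 1.20 CPM in the controls, was not called without the block, and kept its call in 12 of the 15 fits with 1 library left out. Hoxa13 and Hoxc12 kept their calls in 5 and 3 of the 15 fits with 1 library left out. Hox genes set positional identity along the body axis and lie in 4 clusters. On chromosome 11 the 8 Hoxb genes, from Hoxb13 (96194316 to 96197447) to Hoxb3 (96323326 to 96347930), formed an unbroken run of 10 called genes. Hoxb9, which had the largest change of them, stood at 52.5, 19.7 and 10.1 CPM in pMSCV, at 33.8, 11.5 and 3.65 CPM in SRF, at 5.13, 0.561 and 0 CPM in SRF-FOXO1, at 11.3, 1.69 and 0.183 CPM in SRF-ICA1L and at 8.39, 3.37 and 0.372 CPM in SRF-RELA. Replicate 1 was the highest library in all 5 lines, the sides overlapped, and within each number all 3 fusion libraries were below both controls. The change was −3.34 (SE 0.39, adjusted p = 0.000847). Hoxb5, at 0.140 to 0.878 CPM in the fusion libraries and 0.968 to 2.72 CPM in the controls, did not overlap. Against SRF alone Hoxb5, Hoxb6, Hoxb8 and Hoxb9 were called. Hoxb3, Hoxb4, Hoxb7 and Hoxb13 were not called against SRF alone (adjusted p = 0.171, 0.0544, 0.0711 and 0.0635). Without the block 2 Hox genes were called and Hoxb9 was not (adjusted p = 0.126), and neighbouring Hoxb genes may share reads, since a strand setting for counting is not given in the sources used here.

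A shorter run on chromosome 7 held Zim1 (6671269 to 6696450), Peg3 (6703892 to 6730431) and Usp29 (6730578 to 6967219), imprinted genes expressed from the father's copy in mice or, for Zim1, the mother's. Peg3 stood at 621, 323 and 336 CPM in pMSCV, at 210, 189 and 208 CPM in SRF, at 77.0, 26.5 and 23.2 CPM in SRF-FOXO1, and at 70.5 to 215 CPM in SRF-ICA1L and SRF-RELA. It was highest in pMSCV, lowest in SRF-FOXO1, and overlapped between SRF and SRF-ICA1L. The changes were −1.79 for Peg3, −2.15 for Zim1 and −2.01 for Usp29, and against SRF alone none of the 3 was called (adjusted p from 0.0514 to 0.120). These 3 genes were chosen after their values were seen.

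**Figure D4:**
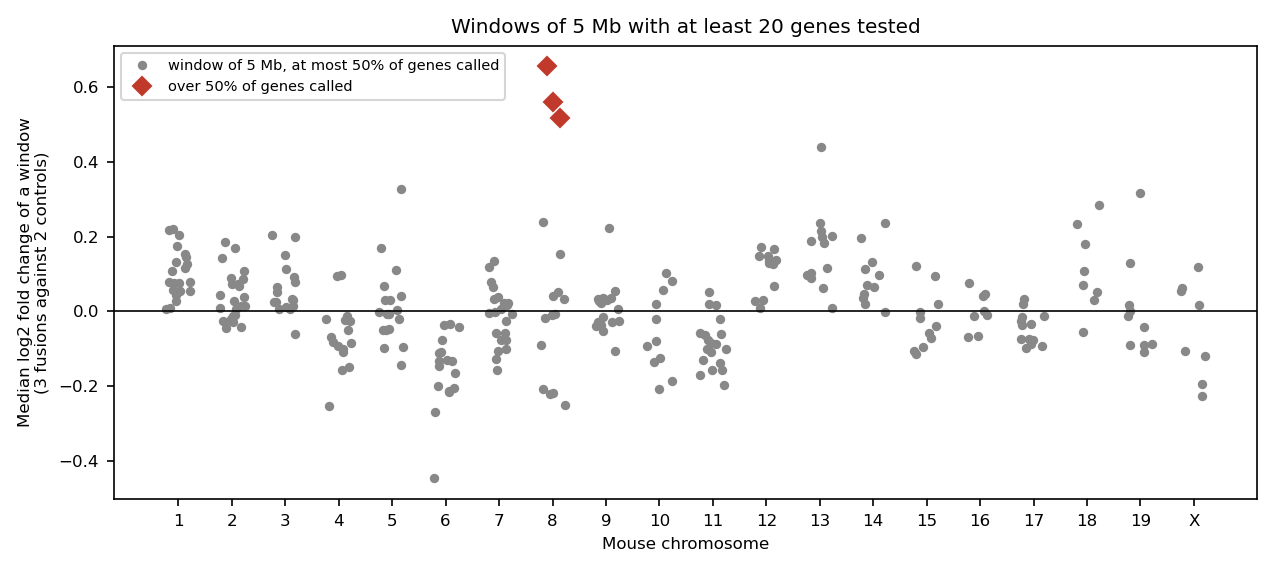
Median log2 fold change of the genes in each of 293 windows of 5 Mb with at least 20 genes tested, by mouse chromosome. The 3 diamonds, all on chromosome 8, are the windows with over 50% of genes called, and they lie above all others.

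A stretch of chromosome 8, from 80 to 95 Mb (GRCm38), held many of the rises. Of 145 genes tested there 81 were called higher and 2 lower, 57.2% called in all against 13.2% in the rest of the genome, and 135 had a fitted change above 0. The median log2 fold change was 0.61, 1.52-fold, and it was 0.79 in SRF-FOXO1, 0.40 in SRF-ICA1L and 0.57 in SRF-RELA, which share their controls. Its 3 windows of 5 Mb had the highest medians of 293 windows (0.56, 0.52 and 0.66). The genes of chromosome 8 before 75 Mb had a median of −0.00, and those from 100 to 130 Mb a median of −0.22, with 10 of 241 called higher and 41 lower. The stretch and its bounds were picked after the values were seen, from windows of 1 size, and so no test is given for it.

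**Figure D5:**
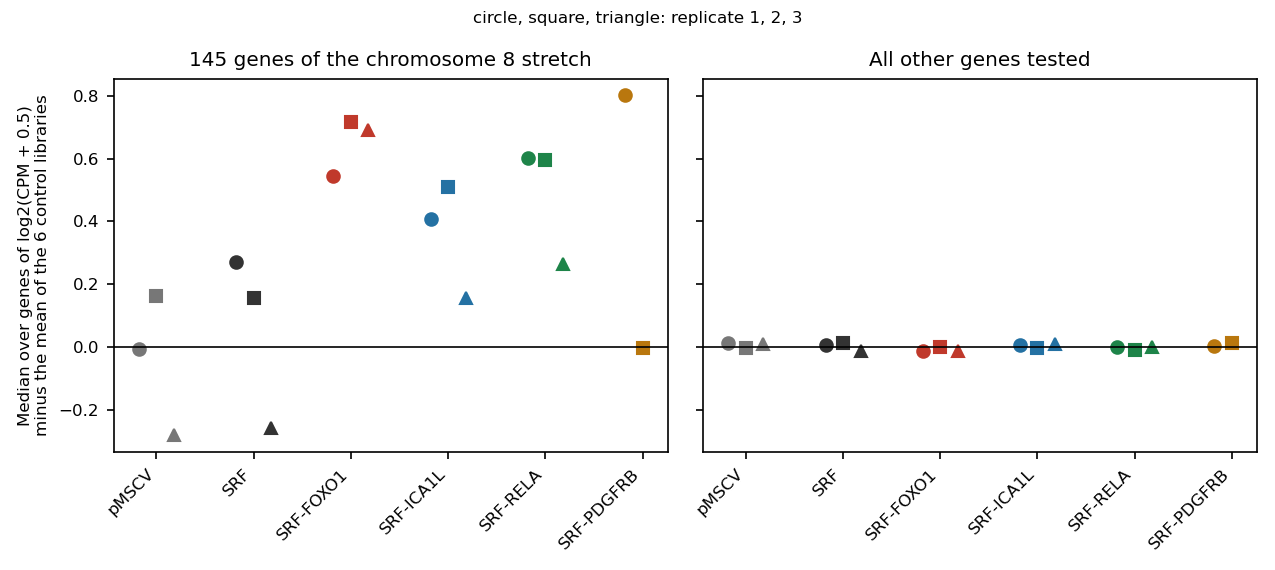
Median over genes of the log2 CPM of a library (with 0.5 added) minus the mean of the 6 control libraries, for the 145 genes of the chromosome 8 stretch and for all other genes outside it, in all 17 libraries. For the stretch, the 9 fusion libraries of the comparison lie from 0.155 to 0.715 and controls from −0.279 to 0.271. SRF-PDGFRB replicates 1 and 2, outside the comparison, lie at 0.801 and −0.003. All libraries lie near 0 for the other genes.

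By library, the median over these 145 genes lay at −0.00, 0.16 and −0.28 in pMSCV and at 0.27, 0.16 and −0.26 in SRF, on a log2 scale relative to the 6 controls. It lay at 0.55, 0.72 and 0.69 in SRF-FOXO1, at 0.41, 0.51 and 0.16 in SRF-ICA1L and at 0.60, 0.60 and 0.26 in SRF-RELA. Replicate 3 was the lowest library in 4 of the 5 lines, replicate 3 of SRF-ICA1L and of SRF-RELA overlapped the controls, and within each replicate number all 3 fusion libraries exceeded both controls. SRF and pMSCV differed by a median of 0.07 here. Calr, a calcium-binding chaperone encoded in the stretch, stood at 1220, 1055 and 897 CPM in pMSCV, at 1692, 1379 and 907 CPM in SRF, at 1808, 2238 and 1893 CPM in SRF-FOXO1 and at 1301 to 2444 CPM in SRF-ICA1L and SRF-RELA. It overlapped between the sides, rose by 0.71, and was not called without the block (adjusted p = 0.0546). Elmod2, Usp38 and Rspry1, chosen after their values were seen, had no overlap between sides and rose by 0.90, 0.54 and 0.63. Irx3, called in each line, and Herpud1 (0.83), of the unfolded-protein response list and not called without the block (adjusted p = 0.219), lie in the stretch as well. DNA was not measured here.

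Markers of other cell types were examined in the same libraries, where 7.22% of all genes were called higher and 6.40% lower. All 7 myoblast markers (Myod1, Myf5, Des, Cdh15, Msc, Chrna1 and Itga7) were called lower, and their summed level was 259 to 1251 CPM in the fusion libraries and 822 to 2140 CPM in the controls. Des was at 88.3 CPM or more in all 15 libraries, and Msc was at 0 in SRF-FOXO1 replicate 2. Of 7 fibroblast markers tested 1, Pdgfra, was called higher, and the sums overlapped at 102 to 2211 CPM in the fusion libraries and 129 to 910 CPM in the controls. Of 3 chondrocyte markers tested only Col2a1 was called, Sox9 was at −0.30 (adjusted p = 0.107), and Acan, Matn1, Comp and Col9a1 were not among the genes in the table. The chondrocyte sums overlapped, at 76.0 to 321 CPM in the fusion libraries and 122 to 236 CPM in the controls. Among 3 tenocyte markers Mkx rose (1.26), Scx was at 0.15 (adjusted p = 0.453) and the sums were 45.8 to 110 CPM against 43.8 to 59.0 CPM. Of 3 leukocyte markers Csf1r and Lyz2 were called higher and Cd68 was at −0.39 (adjusted p = 0.290), with sums of 3.21 to 12.5 CPM against 3.82 to 7.17 CPM. The 2 endothelial markers summed to 2.81 CPM at most. Of 3 Schwann or neuronal markers Tubb3 was called lower (−1.16, adjusted p = 0.0380). In these bulk samples fewer cells of a type and less RNA per cell cannot be told apart, and what part a mix of cells has in the changes was not tested.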

How the data were processed

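RNA from 17 libraries of C2C12 lines was sequenced, and 15 of them were compared here, with groups taken from the sample titles. The authors deposited raw read counts per gene for each library. Per the labels' protocols, stranded polyadenylated libraries were sequenced on a NovaSeq. FastQC 0.11.8, Trimmomatic 0.39, HISAT2, featureCounts of Subread 2.0.0 and the build GRCm38 are named in the submitters' processing notes. The annotation and the strand setting are not given in the sources used here.

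From the counts, edgeR 4.0.16 (R 4.3.3, with limma 3.58.1) fitted group and replicate number with TMM factors and a robust quasi-likelihood fit. The contrast was the mean of 3 fusion lines minus the mean of 2 controls, with Benjamini-Hochberg adjustment over 14948 genes and a threshold of 0.05. Library totals were 20948439 to 23543734 counts and the biological coefficient of variation was 24.66%. Rows without a gene name in the table held 0.555% to 1.13% of the counts. Of 1531 such rows 1519 were named by their identifier and the rows stayed in the tests.

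The block follows from the comparison as set. The labels do not say what a replicate number marks. Deviations of same-numbered libraries correlated at 0.433 to 0.836 within the set of both controls, SRF-RELA and SRF-ICA1L, at 0.227 to 0.321 between SRF-FOXO1 and SRF, and at −0.233 to 0.491 between SRF-FOXO1 and the others, so the pairing is not shown for SRF-FOXO1.

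Genes were named as Srf and the partner genes, the 15 largest rises and 15 largest falls among called genes without overlap between sides, with the same sign in 6 line-by-control contrasts and at least 50 counts in each library of the higher side, and up to 4 called members of each list by smallest p. Gene models without a proper name were skipped. Other called list members and the genes called in each line were added after their values were seen. The comparison and the gene lists were chosen with earlier results of these data known. On simulated counts for this comparison over 14948 genes, 24 of 50 changes of 1.5-fold, 42 of 50 of 2-fold and 50 of 50 of 4-fold were recovered, with 8 false among 174 calls. The counts were simulated independently, with a replicate effect shared by all lines, and changes were placed only in genes averaging at least 50 counts. In the data that pairing is not shown for SRF-FOXO1, so these results may not hold for the 2035 calls. Alternatives were DESeq2 1.42.0, other scalings and filters, no block, other sets of lines and leaving out libraries. Some genes that meet the naming rule are not reported here.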

Additional observations from a re-analysis of the deposited data

Results flagged for a closer look

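The SRF-PDGFRB libraries are in no comparison above. Over the 145 genes of the chromosome 8 stretch, SRF-PDGFRB replicate 1 lay at a median of 0.801 on the log2 scale relative to the 6 control libraries, above the highest control library (0.271). SRF-PDGFRB replicate 2 lay at −0.003, within the control range. The difference was not tested, and the stretch was chosen after the values were seen.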

How the results depend on the processing

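The count of 2035 called genes (1079 higher, 956 lower, 1911 with 1 sign in 6 contrasts, 132 without overlap, 12 in each line) depended on the block, the lines and single libraries. Without the replicate block the counts were 396, 185, 211, 389, 108 and 0, and the block in the 4 paired groups alone gave 26 genes in each line and 12 that differed among fusions. DESeq2 gave 1657 higher, 253 in each line, 198 among fusions and 90 for SRF against pMSCV. With all 17 libraries the counts were 595, 311, 284, 583 and 0 in each line. Without SRF-FOXO1 they were 1174, 669, 505, 1152 and 201, with 2 for SRF against pMSCV. Against pMSCV alone 610 did not overlap and 67 were called in each line, and against SRF alone the counts were 198, 101, 97, 198, 65 and 1. Without SRF-FOXO1 and the replicate block each count for the fusion lines was 0, and SRF against pMSCV called 1 gene. For SRF-FOXO1 alone without the block the counts were 722, 409, 313, 721 and 685. Leaving out 1 library or 1 replicate number gave 73 to 4338 called, 23 to 2230 higher, 50 to 2108 lower, 70 to 3616 with 1 sign, 38 to 720 without overlap, 0 to 102 in each line, 0 to 2796 among fusions and 0 to 2 for SRF against pMSCV. The sarcomere median was −1.83 against pMSCV alone and −0.17 against SRF alone. The acetylcholine receptor median was −0.93 without SRF-FOXO1 (−0.91 also without the block), −1.49 against pMSCV alone, −0.68 against SRF alone and −1.88 for SRF-FOXO1 alone without the block. The collagen median ranged from 0.21 to 1.15 with libraries or a number left out, and the PDGF median was −0.0086 for SRF-FOXO1 alone without the block. Signs turned for Srf against pMSCV alone (0.57), and against SRF alone for H2-K1 (0.10) and Myl4 (0.12). Of 1920 counts of called list members under the alternatives, 789 were over 1.5 times apart from those reported. Apart from what the construction shows (fewer samples or lines), the cause was not tested. Each library matched its own number best in 49 of 60 comparisons with another line.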
